A study of Mus musculus with 27 samples.

Results

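The 9 mouse Chd genes, Chd1 to Chd9, were followed across the limb buds, other tissues and limb-type cultures of the series, and they are 9 of the 23279 genes in the deposited table. They were selected on values of this table: Chd3 was higher in E10.5 than in early limb buds and higher again in sorted cultured cells, and the other 8 genes were taken with it as a family. Each gene encodes a chromodomain helicase DNA-binding protein, an enzyme that uses ATP to slide, space or evict nucleosomes and that carries paired chromodomains. The family has 3 branches: Chd1 and Chd2, which act on transcribed genes, Chd3, Chd4 and Chd5, which are alternative ATPases of the nucleosome remodelling and deacetylase complex (NuRD), and Chd6, Chd7, Chd8 and Chd9. In embryos, Chd4 is the widespread NuRD ATPase, Chd5 is known from brain and testis, and Chd7 binds enhancers and is the gene mutated in CHARGE syndrome, in which heart, ear, eye and craniofacial structures are malformed.

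RNA had been sequenced from 9 groups of 3 libraries. The embryonic tissues were cut from Slc:ICR mice and not sorted: forelimb buds (FLB) and hindlimb buds (HLB) of an early stage, labelled E10.0 in both, then FLB, HLB, branchial arch (BA), cardiac tissue (Ca) and tail bud (TB) at E10.5. The study describes early FLB as of a younger stage than early HLB, so that limb type and stage cannot be told apart in the early pair. The cultured cells came from 1 embryonic stem cell line, EB5 Hand2::GFP +/-, whose aggregates received BMP4 and matrigel, then LDN193189, an inhibitor of BMP receptors, and Wnt3. By the study's methods the later medium of all aggregates also held hydrocortisone and methylcellulose. A pulse of retinoic acid gave the forelimb type (ES-FLB), a retinoic acid antagonist gave the hindlimb type (ES-HLB), and cells positive for Hand2::GFP, a reporter of limb and lateral plate mesenchyme, were sorted on day 9. Replicate 2 of E10.5 HLB was left out because nearly all genes of chromosomes 5, 6, 7, 8, 9 and X and of the distal part of chromosome 4, with Chd2, Chd4, Chd5 and Chd9 among them, were listed at 0, and 26 libraries remained. The methods name 3 dissected embryos and sorts from pooled aggregates, but how these were divided over the libraries was not stated, so p-values measure the spread between these libraries, which may be technical. Levels below are in CPM, the deposited unit, in which the reads of every library on genes sum to the same total, after a further rescaling between libraries, and errors are SD over libraries unless a value is called a log2 difference, which has its standard error (SE).

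Marker genes matched the labelled tissues. Tbx5, the forelimb selector, summed to 154 to 171 CPM in E10.5 FLB and to 0.176 to 0.181 in E10.5 HLB, while Tbx4 and Pitx1, the hindlimb selectors, reached 398 to 412 in E10.5 HLB and 120.0 to 136 in ES-HLB. These selectors were not limited to limb cells. Tbx5 was at 92.2 to 110 in Ca, and the hindlimb sum was 112 to 145 in BA, mainly from Pitx1 (121 ± 18.0). The 6 heart muscle markers summed to 10210 to 12225 CPM in Ca and the 5 tail bud markers to 226 to 268 in TB. The 5 red blood cell markers ran from 2679 to 3849 in E10.5 FLB and 22957 to 33546 in Ca to 5.24 to 7.92 in ES-FLB. The 3 pluripotency markers were at 36.7 to 51.1 CPM in ES-HLB and at most 0.310 in early FLB. Depth was read from the value of 1 read and lay at 19642197 to 22142168 reads in the 6 early limb bud libraries and at 5543752 to 8541916 reads in the other 20, so early stage and depth cannot be told apart in comparisons with early buds.

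Chd3 and Chd4 are close relatives, and reads could in principle be counted to the wrong gene. The table's mm10 build was matched to RefSeq gene positions and, for strands and transcripts, to GENCODE M21 annotation on GRCm38. Chd3 lies at chr11:69343273-69369499 on the minus strand, Chd4 at chr6:125095980-125130591 on the plus strand and Chd5 at chr4:152338646-152390194 on the plus strand. Chd1 lies at chr17:15704967-15772612, Chd2 at chr7:73426652-73541746, Chd6 at chr2:160946978-161109086, Chd7 at chr4:8690402-8868449, Chd8 at chr14:52198151-52258042 and Chd9 at chr8:90828302-91054516. The longest identical run between the coding sequences of Chd3 and Chd4 was 35 bases, and no window of 80 bases, the length of the reads, was shared between any pair of the 9 longest transcripts. The 95 bases around that run are shown because they hold the longest run that Chd3 and Chd4 have in common. They fall in the coding exons for the ATPase motor, capitals mark bases that differ from Chd3, and positions count from the first coding base of each gene, 3592 to 3686 in Chd3, 3385 to 3479 in Chd4 and 3334 to 3428 in Chd5.
Chd3: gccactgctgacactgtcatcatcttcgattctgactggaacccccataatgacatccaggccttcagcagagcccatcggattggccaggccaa
Chd4: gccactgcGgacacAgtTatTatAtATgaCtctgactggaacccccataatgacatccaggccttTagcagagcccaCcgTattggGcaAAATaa
Chd5: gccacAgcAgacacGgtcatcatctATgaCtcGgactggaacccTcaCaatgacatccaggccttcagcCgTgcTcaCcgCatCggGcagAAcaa
Chd4 differed from Chd3 at 16 of these 95 bases and Chd5 at 18. Transcripts of other genes on the opposite strand overlap Chd2, Chd5, Chd6, Chd8 and Chd9, and whether counting used the strand was not stated.

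Chd4 was the most abundant member per kilobase in every group. Over its longest transcript Chd4 ran from 83.1 ± 5.25 CPM per kilobase in Ca to 138 ± 6.15 in early FLB (n = 3 each). Chd3 covered a far wider range, from 7.08 ± 0.377 in early FLB to 106 ± 1.49 in ES-FLB. Next came Chd1, with 22.8 ± 0.437 CPM per kilobase in E10.5 FLB, and Chd8, with 21.4 ± 0.479. Chd7, Chd6 and Chd2 were close together there, at 13.6 ± 0.838, 12.9 ± 0.218 and 12.8 ± 0.514, and Chd9 was at 6.08 ± 0.295. Chd5 was barely detected outside the cultures, and its mean stayed under 1 CPM in all 7 embryonic groups.

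**Figure D1:**
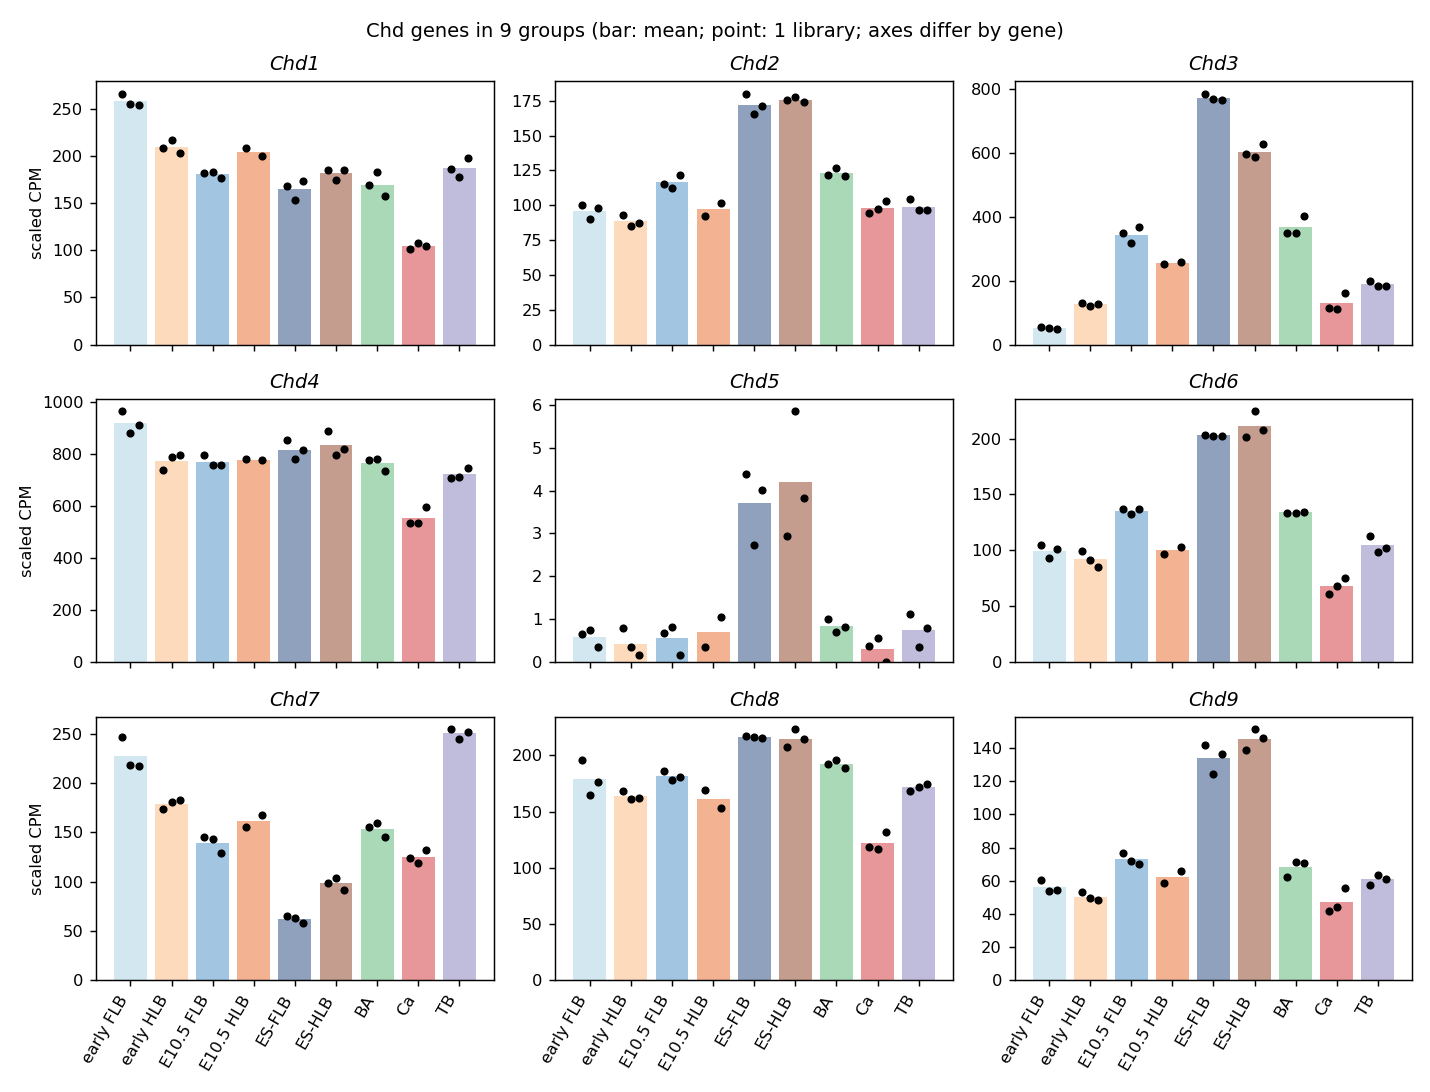
Scaled CPM (y axis, from 0, own scale for each gene) of the 9 Chd genes in 9 groups (x axis). Bars are group means and points are single libraries, 2 for E10.5 HLB and 3 for every other group. Chd3 spans means of 51.4 to 772, Chd4 of 557 to 921, and Chd7 is lowest where Chd3 is highest.

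Because stage and culture chose Chd3, the comparisons of E10.5 with early limb buds and of sorted cells with limb buds are given for every member as values without a test. Chd3 was at 54.3, 51.0 and 48.8 CPM in the early FLB libraries and at 347, 317 and 367 in those of E10.5 FLB. In HLB the early libraries held 131, 121 and 125 CPM and the E10.5 libraries 251 and 258. The log2 difference between stages was 2.73 ± 0.058 (SE) in FLB and 1.02 ± 0.056 in HLB. Sorted cells were above all limb bud libraries, at 784, 766 and 765 CPM in ES-FLB and 596, 586 and 627 in ES-HLB. Relative to E10.5 buds of the same limb type the log2 differences were 1.17 ± 0.041 and 1.24 ± 0.044, and relative to early buds 3.90 ± 0.046 and 2.26 ± 0.048. No libraries overlapped between stages or between culture and embryo in either limb type. Whether a higher CPM in a whole bud came from more expressing cells or from more RNA per cell cannot be told apart here. Culture medium, cell line against mouse strain, and sorting differed together between sorted cells and buds, so their parts cannot be told apart either.

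Chd4 differed little beside it. Its libraries were at 965, 884 and 914 CPM in early FLB, 799, 759 and 759.8 in E10.5 FLB and 855, 783 and 816 in ES-FLB. In the hindlimb series they were at 739.9, 789 and 797, then 783 and 778, then 890.2, 799.5 and 822. The early FLB libraries were high, with 1 ES-HLB library among them, and the remaining libraries lay close together, with log2 differences of -0.25 ± 0.040 between stages of FLB and 0.01 ± 0.051 between stages of HLB. ES-FLB against early FLB gave -0.17 ± 0.041 with rescaling and 0.05 on the CPM as deposited, so the direction of that difference turned with the scaling.

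Chd5 was rare. It rested on 13, 15 and 7 reads in early FLB and 4, 5 and 1 in E10.5 FLB, on 16, 7 and 3 in early HLB and 2 and 6 in E10.5 HLB. The ES-FLB libraries held 36, 21 and 33 reads and the ES-HLB libraries 23, 41 and 32. In CPM this was 3.71 ± 0.869 in ES-FLB and 4.20 ± 1.49 in ES-HLB (n = 3 each), above every embryonic library, whose highest was 1.13. In Ca 1 library held no read, which allows up to 0.391 CPM at its depth by a floor of 3 reads. Such floors and counts cover counting error only. The 7 markers of neural tube and neurons, a known site of Chd5, summed to 46.6 to 54.2 CPM in ES-FLB, 55.7 to 75.8 in ES-HLB and 14.9 to 19.3 in E10.5 FLB. The same list gave 46.9 to 179 in BA and 128 to 148 in TB, where its progenitor genes Sox1, Sox2 and Pax6 were highest, and Chd5 was at 1.02, 0.700 and 0.829 CPM in BA and 1.13, 0.350 and 0.804 in TB. Stmn2, a gene of neurons, was at 16.8 ± 2.07 in ES-FLB, 29.2 ± 4.41 in ES-HLB, 18.5 ± 14.3 in BA and 4.64 ± 1.58 in TB. The other neuronal genes of the list were highest in BA. In the same order Tubb3 was at 21.7 ± 2.12, 11.5 ± 2.47, 62.1 ± 41.6 and 19.4 ± 6.92. Elavl3 was at 1.29, 1.14, 8.32 and 7.64, and Neurod1 at 0.243, 0.534, 4.57 and 0.967. Their part in the Chd5 level was not tested.

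The makeup of the NuRD ATPases differed between groups mainly through Chd3. Per kilobase of the longest transcript, Chd3 was 4.93, 5.05 and 4.69% of the summed Chd3, Chd4 and Chd5 level in the early FLB libraries and 13.0% ± 0.864 (n = 3) in early HLB. At E10.5 its share was 28.6, 27.8 and 30.8% in FLB and 22.9 and 23.4% in HLB. In the sorted cells it was 45.7, 47.4 and 46.3% in ES-FLB and 38.1, 40.2 and 41.2% in ES-HLB, so that Chd3 approached the level of Chd4 there. The means were 30.6% ± 2.59 in BA, 17.4% ± 2.11 in Ca and 19.3% ± 1.02 in TB (n = 3 each). The ranges of BA and E10.5 FLB overlapped, as did those of Ca and TB. The summed level of the 3 genes was 145 ± 6.42 CPM per kilobase in early FLB, 163 ± 5.27 in E10.5 FLB and 229 ± 6.77 in ES-FLB.

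**Figure D2:**
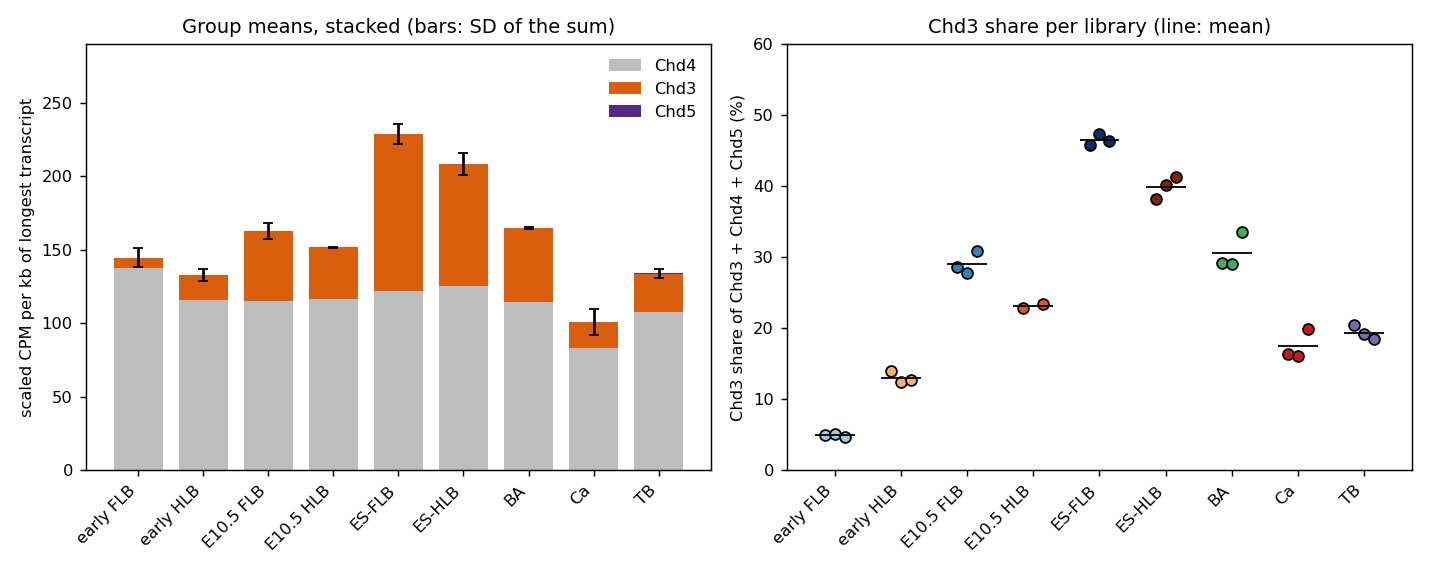
Left, mean scaled CPM per kilobase of the longest transcript for Chd4, Chd3 and Chd5, stacked from 0 by group, with the SD of the sum. Right, the share of Chd3 in that sum (percent) for each library, with a line at the group mean; the share runs from 4.89% in early FLB to 46.5% in ES-FLB, and Chd5 is too low to be seen.

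Chd7 took the opposite order in the forelimb series. Its libraries were at 246, 219 and 218 CPM in early FLB, 145, 143 and 129.5 in E10.5 FLB and 65.6, 62.9 and 57.6 in ES-FLB, with no overlap between any of the 3 groups. The HLB libraries were at 174, 181 and 183 at the early stage, 155 and 168 at E10.5 and 99.1, 104 and 92.0 in ES-HLB. Log2 differences between E10.5 and early buds were -0.70 ± 0.057 in FLB and -0.15 ± 0.057 in HLB. Sorted cells against E10.5 buds gave -1.16 ± 0.060 in the forelimb type and -0.71 ± 0.064 in the hindlimb type, and against early buds -1.87 ± 0.061 and -0.86 ± 0.055.

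Chd2, Chd6 and Chd9 were higher in sorted cells than in any embryonic tissue. Chd9, a gene known from mesenchymal progenitors, was at 77.0, 71.7 and 70.2 CPM in E10.5 FLB and 142, 125 and 136 in ES-FLB, and at 58.6 and 65.9 in E10.5 HLB and 139, 151 and 146 in ES-HLB. Chd6, a DNA-dependent ATPase of the same branch, was at 137, 133 and 137 CPM in E10.5 FLB and 203, 202 and 203 in ES-FLB, and at 97.1 and 103 and 201, 224 and 207 in the hindlimb pair. For Chd2, the partner of Chd1 in the family's first branch, the E10.5 libraries held 115, 112 and 121 CPM in FLB and 92.6 and 102 in HLB, and the sorted cells 180.2, 165 and 171 and 175, 178 and 174. Log2 differences against E10.5 buds were 0.87 ± 0.058 and 1.22 ± 0.067 for Chd9, 0.58 ± 0.043 and 1.07 ± 0.059 for Chd6, and 0.56 ± 0.049 and 0.85 ± 0.059 for Chd2, forelimb type first. Between stages the differences of these genes were smaller, at most 0.44 (Chd6 in FLB).

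Chd8, a partner of beta-catenin that restrains Wnt targets, was at 186, 178 and 181 CPM in E10.5 FLB, 217, 216 and 215 in ES-FLB, 169 and 154 in E10.5 HLB and 207, 223 and 214 in ES-HLB, log2 differences of 0.25 ± 0.041 and 0.41 ± 0.055. Between stages Chd8 differed by 0.03 ± 0.055 in FLB and -0.02 ± 0.060 in HLB, and its libraries overlapped in both. Chd1, which helps keep stem cell chromatin open, was highest in early FLB, at 266, 255 and 254 CPM against 182, 183 and 176 in E10.5 FLB, a log2 difference of -0.52 ± 0.042. In HLB, with 209, 217 and 203 CPM early and 208 and 199.8 at E10.5, the stages overlapped and the difference was -0.04 ± 0.054. The sorted cells were below the E10.5 buds of their limb type, with 168, 153 and 174 CPM in ES-FLB and 185, 174 and 185 in ES-HLB, log2 differences of -0.13 ± 0.047 and -0.17 ± 0.054. Against early buds the differences were -0.65 ± 0.050 and -0.21 ± 0.048.

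Counted over the family, 4 members lay wholly above and 3 wholly below the early libraries in E10.5 FLB, where 32.7% and 36.8% of all genes that passed the filter did so. In E10.5 HLB against early HLB it was 2 above and 1 below, with 25.4% and 31.1% of all genes. ES-FLB had 6 above and 3 below early FLB (all genes 41.9% and 41.6%) and 6 above and 2 below E10.5 FLB (36.5% and 37.4%). ES-HLB had 7 above and 2 below early HLB (40.5% and 39.9%) and 7 above and 2 below E10.5 HLB (41% and 38.9%). Chd5 passed the filter in these 4 comparisons only through the sorted cells, so its place among the higher members was largely fixed by the filter. Nothing is read from these counts, since the contrasts chose the family. With fewer libraries ranges part more easily: without E10.5 HLB replicate 1, 8 rather than 3 members did not overlap between stages of HLB, and 5 did not on the CPM as deposited. Transcript length moved with culture. All 9 longest Chd transcripts are between 6697 and 12008 bases, and genes over 6 kilobases had a median log2 difference of 0.30 in ES-FLB and 0.38 in ES-HLB against early buds, and of 0.25 and 0.34 against E10.5 buds, where genes under 2 kilobases had -0.28, -0.30, -0.21 and -0.21. Chd2, Chd3, Chd5, Chd6 and Chd9 lay above the median of these long genes in all 4 comparisons, and Chd1, Chd4 and Chd7 below it. Chd8 was close to it, with differences of 0.28, 0.39, 0.25 and 0.41 in the same order. The part of transcript length in these levels was not tested.

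**Figure D3:**
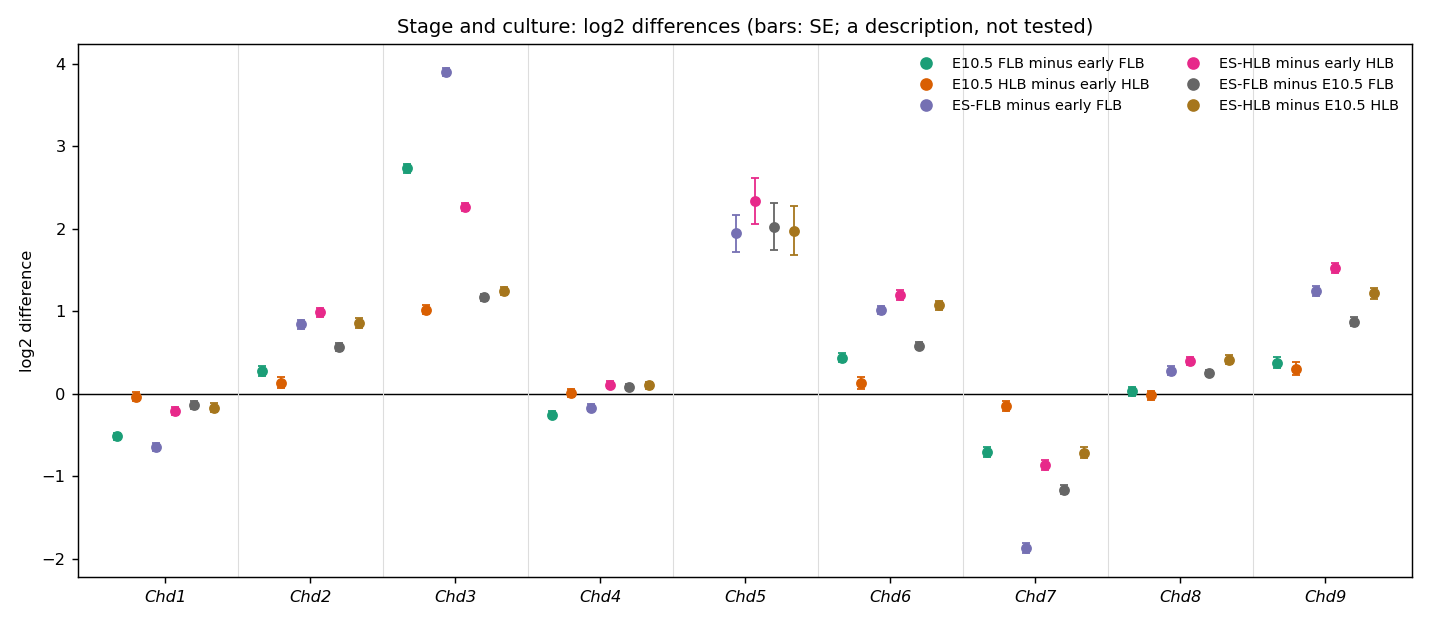
Log2 difference (y axis) with its SE for each Chd gene (x axis) in 6 comparisons of stage or of sorted cells with limb buds; no test was made. Chd3 reaches 3.90 and Chd7 -1.87 in ES-FLB against early FLB, and Chd5 is missing between stages because it was under the filter on low values.

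The limb-type comparisons were not used to choose the family, although they read the same libraries, and the direction for Chd3 was known from an earlier look at the table. A member was called when its adjusted p was under 0.05. In early buds Chd3 was higher in HLB, at 131, 121 and 125 CPM against 54.3, 51.0 and 48.8 in FLB, without overlap. The log2 difference was 1.28 ± 0.057 (adjusted p = 1.21e-07, n = 3 and 3). Since early FLB was the younger group by the study's account, limb type and stage cannot be told apart here for any member. Chd3 was chosen by its difference between stages, so its p is no separate support. Chd7, Chd1 and Chd4 were lower in early HLB. Chd7 differed by -0.34 ± 0.056 (adjusted p = 0.00167), Chd1 by -0.30 ± 0.046 (adjusted p = 0.00118) and Chd4 by -0.25 ± 0.049 (adjusted p = 0.00517), and in each of these genes every HLB library was under every FLB library. Chd2, Chd6, Chd8 and Chd9 had differences of -0.12, -0.12, -0.12 and -0.16 and were not called, and Chd5 was under the filter on low values. Called members were thus 4 of the 8 tested, 1 higher and 3 lower, where 20.3% of all genes were called, 9.35% higher and 11% lower. Genes with transcripts over 6 kilobases had a median of -0.11 in this comparison, and the part of length in the lower members was not tested.

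At E10.5 the direction for Chd3 was the other way. Its HLB libraries, 251 and 258 CPM, were below the FLB libraries, 347, 317 and 367, a log2 difference of -0.43 ± 0.049 (adjusted p = 1.4e-09, n = 2 and 3). Since its level in these libraries helped to choose it, this p is no separate support either. Chd6 was lower in HLB by a like amount, -0.43 ± 0.060 (adjusted p = 7.61e-08), from 137, 133 and 137 CPM in FLB to 97.1 and 103 in HLB. Chd2, Chd9 and Chd8 were lower by smaller amounts, with log2 differences of -0.26 ± 0.063, -0.23 ± 0.076 and -0.17 ± 0.054 and adjusted p of 0.00137, 0.021 and 0.0146. Chd7 and Chd1 were higher in HLB, by 0.21 ± 0.058 (adjusted p = 0.00457) and 0.18 ± 0.052 (adjusted p = 0.0082), the reverse of their order in early buds. The early pair differed in stage as well as limb type by the study's account. A change of the limb-type difference in Chd3, Chd7 and Chd1 therefore cannot be told apart from stage. Chd4 gave 0.01 ± 0.038 (adjusted p = 0.824) and its libraries overlapped. So 7 of 8 members tested were called, 2 higher and 5 lower, against 24.3% of all genes, 12.2% higher and 12.1% lower, and genes over 6 kilobases had a median of -0.091. With only 2 HLB libraries single ones decided several of these calls. Without HLB replicate 1, 4 members were called and Chd1, Chd2 and Chd9 were not. Chd7 and Chd8 were not called without HLB replicate 3, Chd8 and Chd9 without FLB replicate 1, and Chd7 without FLB replicate 3, while Chd3 and Chd6 were called in all 5 of these fits. Chd1 also lost its call on the CPM as deposited, and Chd9 with all 26 libraries in the fit.

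In culture the hindlimb type had less Chd3 and more Chd7. Chd3 was at 596, 586 and 627 CPM in ES-HLB and 784, 766 and 765 in ES-FLB, a log2 difference of -0.36 ± 0.032 (adjusted p = 2.68e-10, n = 3 and 3). It was chosen partly for its level in these libraries, so its p is no separate support. Chd7 was at 99.1, 104 and 92.0 CPM in ES-HLB and 65.6, 62.9 and 57.6 in ES-FLB, a difference of 0.66 ± 0.063 (adjusted p = 7.9e-10). Neither gene had overlapping libraries. Chd1 was higher by 0.14 ± 0.049 (adjusted p = 0.0344), a call that was lost in 3 of the 6 fits that left out a library, without ES-FLB replicate 2 or ES-HLB replicate 1 or 3, and with all 26 libraries in the fit. The other 6 members were not called, and Chd2, Chd4, Chd6 and Chd8 differed by at most 0.06. Thus 3 of 9 were called, 2 higher and 1 lower, where 25.1% of all genes were, 13.1% higher and 12% lower. Genes over 6 kilobases had a median of -0.023. The sums of the red blood cell, pluripotency and surface ectoderm markers were higher in ES-HLB, 84.8 to 159.5, 36.7 to 51.1 and 191 to 204 CPM, than in ES-FLB, 5.24 to 7.92, 8.70 to 12.7 and 102 to 155, and their part in these differences was not tested.

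The limb-type difference of the cultures minus that of early buds, an interaction over the 12 libraries of the 4 groups, is also the difference between the 2 comparisons of sorted cells with early buds. Those comparisons chose the family, so its values are a description without p. Chd3 was at -1.64 ± 0.066 on the log2 scale, being higher in HLB than FLB in early buds and lower in ES-HLB than ES-FLB. Chd7 was at 1.00 ± 0.085, with the opposite signs in the same groups. Chd1 was at 0.44 ± 0.070, Chd4 at 0.28 ± 0.066 and Chd9 at 0.27 ± 0.087, and Chd2, Chd5, Chd6 and Chd8 at 0.15, 0.39, 0.18 and 0.12. The call threshold was passed by 5 of 9 members, 4 in the positive direction and 1 in the negative, and by 22.7% of all genes, 12.8% positive and 9.96% negative, and nothing is read from that count.

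**Figure D4:**
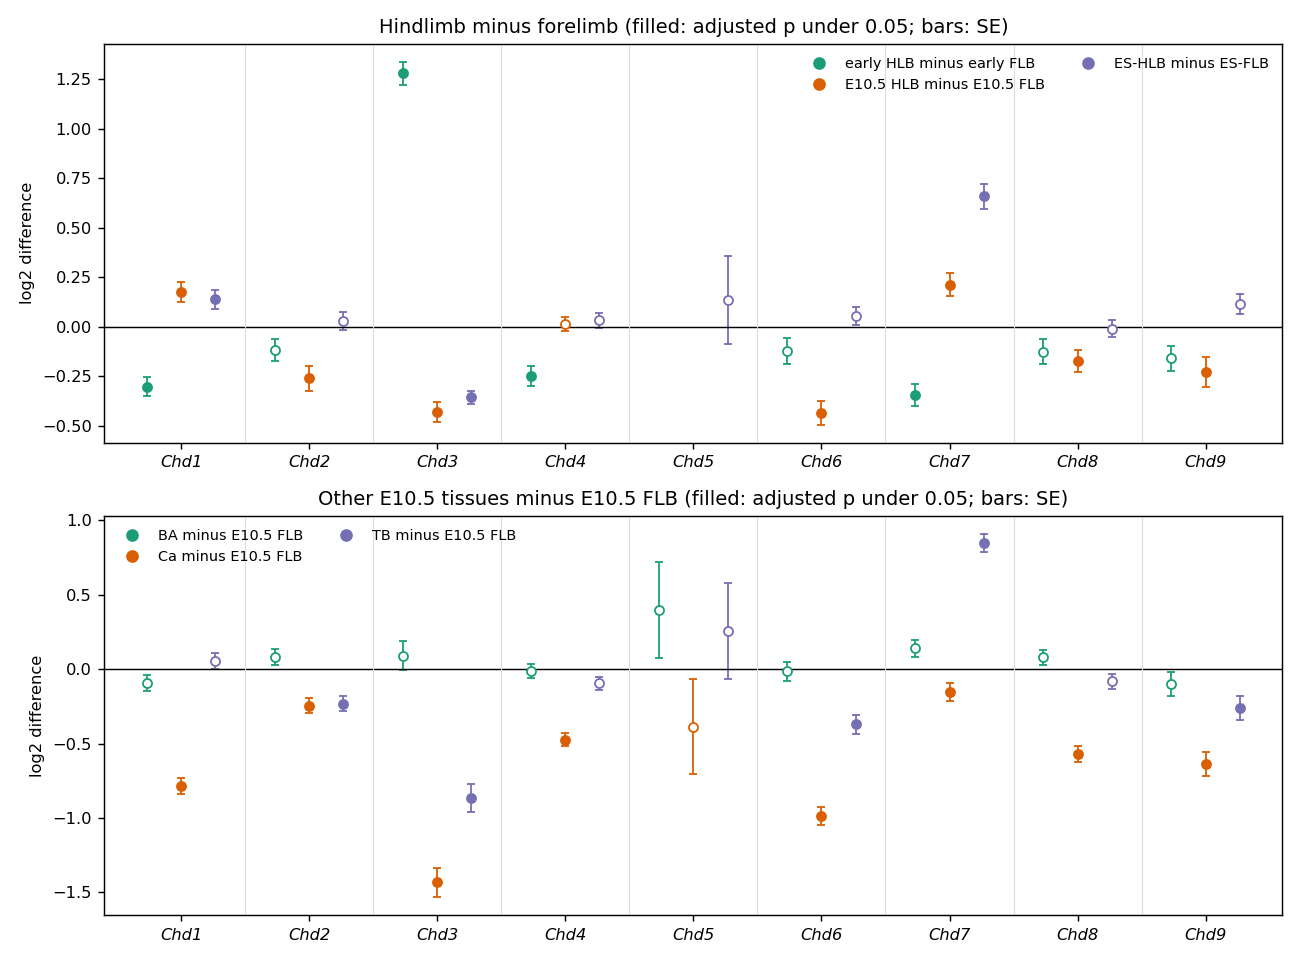
Log2 differences (y axis) with SE for each Chd gene (x axis). Top, hindlimb minus forelimb in early buds, E10.5 buds and culture; bottom, BA, Ca and TB minus E10.5 FLB. Filled points had an adjusted p under 0.05, which for Chd3 is no separate support, since its levels chose the family. Chd3 lies at 1.28 in early buds, where limb type and stage cannot be told apart, at -0.43 at E10.5 and at -0.36 in culture. In the lower plot 8 of 9 Ca points are filled and lie below 0.

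Other E10.5 tissues were compared with E10.5 FLB, whose 3 libraries are shared by these comparisons and by the E10.5 limb-type comparison. Chd3 was chosen partly for its level in those libraries, so its p-values against them are no separate support. BA had the fewest called members and genes of the 3 tissues. Chd3 was at 347, 347 and 403 CPM in BA and 347, 317 and 367 in FLB, and the difference of 0.09 ± 0.096 was not called (adjusted p = 0.59). By limma, 0 of 9 members were called and 1, Chd7, had an unadjusted p under 0.05 (0.0267, log2 difference 0.14 ± 0.059), while 20.8% of all genes were called, 11.1% higher and 9.72% lower. The other members differed by -0.10 (Chd9) to 0.09 (Chd3), apart from Chd5 at 0.40 ± 0.32.

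Ca was lower in 8 of 9 members. Chd3 was at 113, 112 and 161 CPM, a log2 difference of -1.43 ± 0.096 (adjusted p = 2.64e-11), with 1 library well above the other 2 and all under FLB. Chd6 was at 61.3, 68.1 and 75.5 CPM in Ca, a difference of -0.99 ± 0.064 (adjusted p = 2.96e-15), and Chd1 at 101, 107 and 105, a difference of -0.79 ± 0.052 (adjusted p = 7.09e-15). Chd9, Chd8, Chd4 and Chd2 differed by -0.64, -0.57, -0.47 and -0.25, all called and without overlap. Chd7, the member known from heart malformations, gave only -0.15 ± 0.059 (adjusted p = 0.0205), with 124, 119 and 133 CPM in Ca and 145, 143 and 129.5 in FLB, and it was not called with median-of-ratios scaling (-0.10, adjusted p = 0.129) or without Ca replicate 2, FLB replicate 1 or FLB replicate 2. Chd5 was not called (-0.39 ± 0.32). Most genes differed between these tissues: 74.7% of all genes were called, 36.5% higher and 38.2% lower, and the 5 red blood cell markers summed to 22957 to 33546 CPM in Ca against 2679 to 3849 in FLB. The part of blood and heart muscle RNA in the lower shares was not tested.

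TB had less Chd3 and more Chd7 than E10.5 FLB. Chd7 was at 254, 245 and 252 CPM in TB, and the log2 difference from E10.5 FLB was 0.84 ± 0.059 (adjusted p = 2e-13). The TB libraries overlapped with early FLB, where Chd7 was 246, 219 and 218. Chd3 was at 198, 183 and 183 CPM, a difference of -0.87 ± 0.096 (adjusted p = 2.82e-07). Chd6, Chd9 and Chd2 were lower, with differences of -0.37, -0.26 and -0.23, and were called. Chd1, Chd4, Chd5 and Chd8 were not called, with values of 0.05, -0.10, 0.26 and -0.08. Called members were 5 of 9, 1 higher and 4 lower, and 45.7% of all genes were called, 23.4% higher and 22.3% lower. Genes over 6 kilobases had medians of 0.033 in BA, -0.11 in Ca and 0.0026 in TB.

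In the order of group means Chd3 ran from ES-FLB over ES-HLB, BA, E10.5 FLB, E10.5 HLB, TB, Ca and early HLB to early FLB. BA and E10.5 FLB overlapped, as did Ca and early HLB, and the remaining neighbours in that order did not. Chd7 ran from TB over early FLB, early HLB, E10.5 HLB, BA, E10.5 FLB, Ca and ES-HLB to ES-FLB, with overlap between TB and early FLB and between each neighbouring pair from E10.5 HLB to Ca. Ca had the lowest mean for Chd1, Chd4, Chd5, Chd6, Chd8 and Chd9, and for Chd5 and Chd9 its libraries overlapped with those of early HLB, the next group. Between the lowest and highest group means Chd3 spanned 15.02-fold, Chd7 4.04-fold and Chd4 1.65-fold, while the median coefficient of variation within groups was 4.37% for Chd3, 5.56% for Chd7 and 3.96% for Chd4.

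Correlations over the 26 libraries describe how the members varied together; the libraries fall into 9 groups and share depth by group, so no test was made. Chd2, Chd6 and Chd9 varied together, with Pearson r of 0.92 between Chd2 and Chd6, 0.96 between Chd2 and Chd9 and 0.95 between Chd6 and Chd9. Chd1 and Chd4 formed another pair, with r of 0.86, although they belong to different branches. Chd3 had r of 0.85 with Chd2 and 0.10 with Chd4, its close relative. With Chd3, Chd7 had r of -0.76 and Chd1 of -0.26, and the other members had positive r. Among 11050 genes with a mean of at least 5 CPM, those most like Chd3 were Bmp1 (r = 0.976), a protease that processes procollagen, St8sia2 (0.975), a polysialyltransferase, Dyrk1b (0.969), a kinase, Ttyh3 (0.966), a membrane protein, and Rfx5 (0.964), a transcription factor. Bmp1 was at 45.6 ± 0.550 CPM in early FLB, 152 ± 9.10 in E10.5 FLB and 217 ± 8.21 in ES-FLB. The 2 genes most like each other member were Arid3b (0.958) and Homez (0.949) for Chd7, Smek1 (0.974) and Spred1 (0.971) for Chd1, Lphn1 (0.981) and Whsc1l1 (0.977) for Chd2, BC016423 (0.952) and Snrnp200 (0.944) for Chd4, Zfp292 (0.977) and Tsc1 (0.976) for Chd6, Nipbl (0.975) and Dync2h1 (0.971) for Chd8, and D030016E14Rik (0.976) and Whsc1l1 (0.976) for Chd9. Chd5 was under that minimum.

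The NuRD subunits that work with Chd3, Chd4 and Chd5 are given beside Chd3 in the same comparisons. The list held 12 genes for the deacetylases Hdac1 and Hdac2, the histone chaperones Rbbp4 and Rbbp7, the Mta, Mbd and Gatad2 scaffolds and Cdk2ap1, and all 12 passed the filter. In sorted cells against early buds 9 subunits lay wholly below and 1 wholly above in ES-FLB, and 10 below and 1 above in ES-HLB, with list medians of -0.52 and -0.38 beside 0.007 and 0.013 for all genes. Of all genes 41.6% lay below and 41.9% above in ES-FLB, and 39.9% and 40.5% in ES-HLB. Against E10.5 buds it was 8 below and 1 above in ES-FLB and 9 below and 1 above in ES-HLB, with medians of -0.27 and -0.25 beside -0.0084 and 0.026 for all genes, of which 37.4% lay below and 36.5% above in ES-FLB and 38.9% and 41% in ES-HLB. The gene above was Gatad2b each time. Cdk2ap1 was the lowest in all 4, with 443 ± 11.3 CPM in E10.5 FLB, 288 ± 5.53 in ES-FLB and log2 differences of -0.62 ± 0.035 in the forelimb and -0.73 ± 0.045 in the hindlimb type. Rbbp4 gave -0.50 ± 0.033 and -0.61 ± 0.040 and Hdac1 -0.41 ± 0.044 and -0.65 ± 0.056, while Gatad2b gave 0.57 ± 0.078 and 0.50 ± 0.091. Of the 12 transcripts 9 are under 4 kilobases and Gatad2b, at 7438 bases, is the only one over 6, and the length medians of these comparisons are given above.

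**Figure D5:**
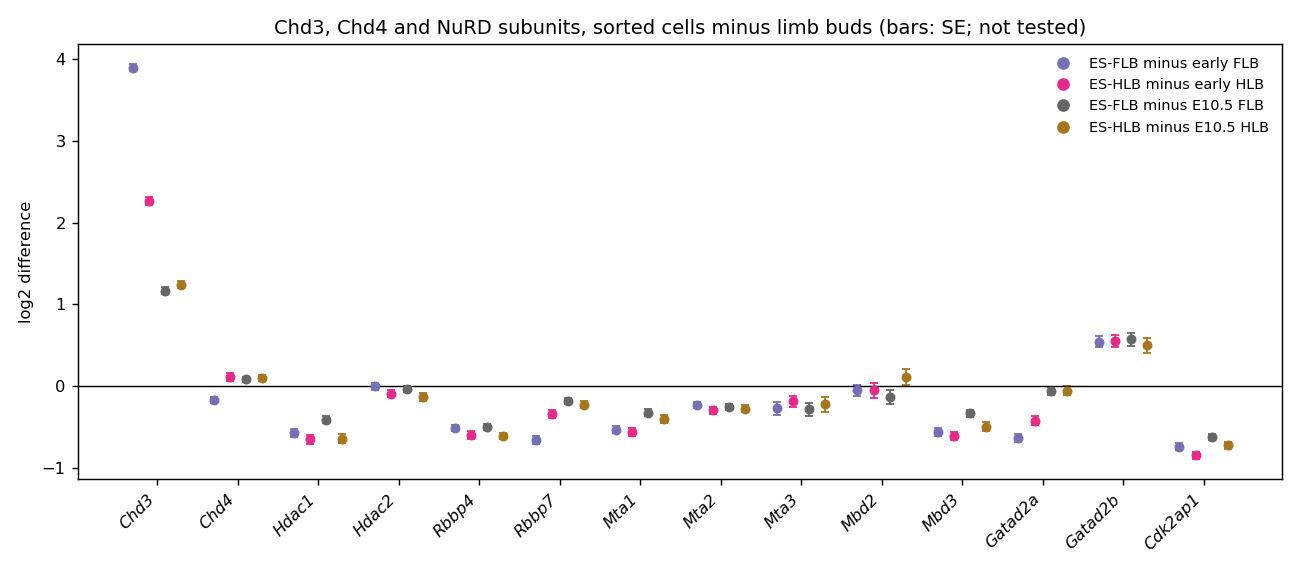
Log2 difference (y axis) with SE of Chd3, Chd4 and 12 NuRD subunits (x axis) in sorted cells minus limb buds of the same limb type, at the early stage and at E10.5; no test was made. Chd3 lies at 1.17 to 3.90, Chd4 near 0, and Cdk2ap1 at -0.85 to -0.62.

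Between stages 5 subunits lay wholly below the early libraries in E10.5 FLB and 4 in E10.5 HLB and none lay above, where 36.8% and 31.1% of all genes lay below and 32.7% and 25.4% above. The lowest subunit was Gatad2a, at -0.58 ± 0.045 in FLB and -0.37 ± 0.059 in HLB. In early HLB 1 of 12 was called higher (all genes 9.35%), Cdk2ap1 (0.19 ± 0.054, adjusted p = 0.0312), and none lower (all genes 11%). E10.5 HLB had 4 higher, Rbbp7 (0.25), Cdk2ap1 (0.19), Mbd3 (0.18) and Hdac1 (0.14), and none lower, where 12.2% of all genes were called higher and 12.1% lower. ES-HLB had 1 higher, Rbbp7 (0.20, adjusted p = 0.000105), and none lower (all genes 13.1% and 12%). The list medians in these 3 comparisons were 0.043, 0.085 and 0.014. In Ca 8 of 12 were lower, led by Cdk2ap1 (-1.15 ± 0.047), and 3 were higher, led by Mbd2 (0.74 ± 0.088), beside 38.2% and 36.5% of all genes. BA had 1 higher and none lower (all genes 11.1% and 9.72%), and TB had 1 higher and 4 lower (all genes 23.4% and 22.3%).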

How the data were processed

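RNA from 27 mouse libraries in 9 groups of 3 was sequenced as single reads of 80 bases, and the deposited table gives 23279 genes in CPM. According to the submitters' processing notes and the study's methods, the authors mapped TruSeq Stranded mRNA reads to mm10 with HISAT (2.0.4 in the notes), counted them per gene of mm10 with Cuffdiff (the notes name Cufflinks 2.1.1, and the methods give another version of Cuffdiff and both RefSeq and UCSC annotation) and scaled them to CPM, in which every library sums to the same total, with edgeR 3.16.2; the strand setting of counting is not given in the sources used here. Depth was computed from the value of 1 read, and 94.5% to 99.3% of values up to 20 reads in the 26 libraries used were whole multiples of it within 0.02 reads. Groups and replicates were taken from the labels. Replicate 2 of E10.5 HLB, at 0 for nearly all genes of several chromosomes, was left out.

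CPM were rescaled between libraries by trimmed means (30% of ratios, 5% of intensities), taken as log2(CPM + 0.5), kept for genes with at least 1 CPM in 3 libraries of a fit, and fitted with limma 3.58.1 in R 4.3.3 with a mean-variance trend and robust moderation. P-values are two-sided and Benjamini-Hochberg adjusted over all genes of a fit. The pseudocount understates folds of low genes. Limb-type comparisons used the libraries compared, and BA, Ca and TB were fitted with all 26. Comparisons used to choose the family got no test, and the interaction, a difference between such comparisons, is given without p. The members, comparisons and gene lists were chosen with earlier results of these data known. Named genes are the 9 members, list members with the largest differences, and the genes with the highest Pearson r over 26 libraries (5 for Chd3, 2 for each other member, mean of at least 5 CPM). Gene positions come from RefSeq, and strands, transcript lengths and sequences from GENCODE M21 on GRCm38. Alternatives were other scalings, pseudocounts, filters, sets of libraries, a replicate block and leaving out single libraries. The scripts were tested on simulated data. The main fits did not pair libraries by replicate number. Between compared groups same-numbered libraries correlated at -0.11 to 0.13 around their group means, and other pairs at -0.18 to 0.19. In ES-HLB against ES-FLB and in Ca against E10.5 FLB every same-numbered pair was positive and every other pair negative. In TB against E10.5 FLB every same-numbered pair was negative.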

Additional observations from a re-analysis of the deposited data

Results flagged for a closer look

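The limb-type difference, hindlimb minus forelimb, was compared between culture and early buds by the interaction term of limma, and no member is called from it. On the log2 scale the culture value minus the early value was -1.64 for Chd3, 1.00 for Chd7, 0.44 for Chd1, 0.28 for Chd4 and 0.27 for Chd9. For Chd2, Chd5, Chd6 and Chd8 it was 0.15, 0.39, 0.18 and 0.12. The same values are differences between comparisons of sorted cells with early buds, which chose the family, so they are a description. The study describes early FLB as the younger group, and stage cannot be told apart from limb type in them.

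Replicate 2 of E10.5 HLB entered no comparison, yet 5 members had reads in it. As deposited, Chd1 was at 296 CPM, Chd3 at 348 CPM, Chd6 at 159.8 CPM, Chd7 at 255 CPM and Chd8 at 257 CPM. Rescaled over the chromosomes that it covered, Chd3 was at 230.3 beside 255 and 261 in replicates 1 and 3, and Chd7 at 169 beside 158 and 169.8. Chd1 was at 196, Chd6 at 106 and Chd8 at 169.7 on that scale.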

How the results depend on the processing

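On the CPM as deposited the median of all genes moved by 0.22 in ES-FLB and 0.16 in ES-HLB against early buds, 0.16 in E10.5 FLB against early FLB, 0.10 in ES-HLB against E10.5 HLB and -0.11 in Ca. Chd4 in ES-FLB against early FLB then turned from -0.17 to 0.052, and 5 rather than 3 members did not overlap between stages of HLB. The call of Chd1 in E10.5 HLB was lost (0.12, adjusted p = 0.0794). Of the 113 member results compared, 61 were judged by their side of the threshold alone, including the interaction, from which no call is read. The 37 results that moved by more than their spread were all among the rest, the untested comparisons of stage and culture. With all 26 libraries in each limb-type fit, Chd9 at E10.5 and Chd1 in culture were not called. Median-of-ratios scaling ended the call of Chd7 in Ca, fitting TB with E10.5 FLB alone gave Chd4 a call (-0.10, adjusted p = 0.0206), and removing the filter on low values changed 0 of 61 results. With replicate 2 of E10.5 HLB kept and its empty chromosomes missing, 22 of 25 results kept their call or stayed within their spread and 3 moved without a change of sign. The replicate block, which added the replicate number to the fit, left 60 of 61 results on their side of the threshold and gave Chd9 in ES-HLB a call (0.12, adjusted p = 0.0468). The edgeR test on whole reads was not run. Leaving out single libraries kept 391 of 412 member results on their side of the threshold, the interaction included. Of the others 19 fell below it, 2 passed it anew, with Chd9 in culture among them, and 0 turned. Members called ranged from 4 to 4 in early HLB, 4 to 7 in E10.5 HLB, 2 to 4 in ES-HLB, 0 to 0 in BA, 7 to 8 in Ca and 5 to 5 in TB. Members not overlapping between stages of HLB ranged from 3 to 8. Genes called in early HLB ranged from 1376, without early FLB replicate 1, to 2284 beside 2541 in all libraries. At these depths Chd5 in embryos rested on at most 9 reads per E10.5 library, which limits its comparisons.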

Other observations

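Other ATP-dependent remodelers were counted from lists of their subunits. The BAF and PBAF list held 22 genes, of which 21 passed the filter in Ca, with 2 higher and 18 lower than in E10.5 FLB, beside 36.5% and 38.2% of all genes (median -0.45, all genes -0.021). The 2 higher were Dpf3 (3.86 ± 0.28) and Smarcd3 (1.82 ± 0.14), both known subunits of BAF in heart muscle. Dpf1, known from neurons, was the lowest (-2.57 ± 0.12). Dpf3 was also higher in TB (2.06 ± 0.28), where 4 were higher and 11 lower (all genes 23.4% and 22.3%), and lower in early HLB than in early FLB (-0.96 ± 0.28, adjusted p = 0.0398), where none was higher and 5 were lower (all genes 9.35% and 11%).

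In the ISWI list of 9 genes, Cecr2, a gene needed for neural tube closure, was among those that differed by limb type. It was higher in ES-HLB than in ES-FLB (0.98 ± 0.091, adjusted p = 5.33e-10) and in E10.5 HLB than in E10.5 FLB (0.61 ± 0.076). It was higher in TB (0.95 ± 0.095) and lower in Ca (-1.60 ± 0.095). The ISWI ATPase Smarca1 was lower in ES-HLB (-0.32 ± 0.063) and in E10.5 HLB (-0.27 ± 0.090). Over the whole list 2 were higher and 2 lower in ES-HLB (all genes 13.1% and 12%), 3 and 2 in E10.5 HLB (all genes 12.2% and 12.1%), and 0 and 3 in early HLB (all genes 9.35% and 11%). In Ca it was 1 and 7 and in TB 3 and 3, with the shares of all genes given above.

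Of the INO80, SRCAP and TIP60 list, 8 of 9 genes were tested. In ES-HLB 2 were higher, Ruvbl2 (0.23 ± 0.058) and Ruvbl1 (0.16 ± 0.058), paired ATPases of these complexes, and 0 lower (all genes 13.1% and 12%). Ca had 0 higher and 6 lower, beside 36.5% and 38.2% of all genes. Among 6 other SNF2 ATPases Hells, which supports DNA methylation, was higher in E10.5 HLB (0.30 ± 0.053) and ES-HLB (0.17 ± 0.058). Of these 6 genes 1 was higher and 1 lower in E10.5 HLB (all genes 12.2% and 12.1%). In ES-HLB 1 was higher and 0 lower (all genes 13.1% and 12%), and in early HLB 0 and 1 (all genes 9.35% and 11%). The 4 genes that bind Chd4 in the ChAHP complex or belong to its Cbx family were all lower in Ca, led by Cbx1 (-1.34 ± 0.056), where 38.2% of all genes were lower.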
